A study of Mus musculus with 60 samples.

Results

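The levels of 10 immediate early response genes, Fos, Fosb, Jun, Junb, Jund, Atf3, Egr1, Ier2, Dusp1 and Zfp36, were compared in whole blood of mice given BIO 300 or vehicle, with or without total-body irradiation (TBI). The rule gave them by name and used no measured value, although the set was chosen with earlier results of these data known, and all 10 were found among the 49315 genes of the count tables. The 60 mice formed 10 groups of 6. All were male CD2F1 mice, 5 to 6 weeks old when bought, and each received 12 oral doses, 12 h apart, over 6 days. BIO 300 is an oral powder of genistein, a soy isoflavone with selective estrogen receptor activity, and the vehicle was its carrier solution without the drug. The unirradiated groups were vehicle and BIO 300 at 50, 100 or 200 mg/kg, each with separate mice bled 24 h after the last dose (Day 0) or 48 h after it (Day 1). The other groups were irradiated on Day 0, after vehicle or 200 mg/kg, with 9.2 Gy of gamma rays from a cobalt source and bled 24 h later, on Day 1. The 12 irradiated mice stood in 2 boxes of 6, and the sources used here do not say which mouse was in which box, so box and treatment cannot be told apart. Mice of 1 sex, 1 strain and 1 radiation dose were studied, and no group was bled within hours of irradiation.

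Immediate early genes are switched on in response to growth factors, stress or inflammatory signals without a need for new protein synthesis. The signal travels through MAP kinase cascades to transcription factors already present in the cell, such as SRF, the ELK proteins, CREB and ATF2, and the transcripts that follow are short-lived. In blood, these transcripts are known from leukocytes, among them neutrophils and monocytes. Among the 10 genes, Fos, Fosb, Jun, Junb and Jund encode the subunits of the AP-1 transcription factor. Atf3 encodes a stress-induced partner of the Jun proteins. Egr1 encodes a zinc finger transcription factor, and Ier2 encodes a nuclear regulator. The remaining genes encode brakes on the response, Dusp1 a phosphatase that switches off MAP kinases and Zfp36 tristetraprolin, which binds AU-rich elements and drives decay of cytokine mRNAs.

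The sequences just upstream of 4 of these genes are shown because they carry letters of the cAMP response element, at which CREB and ATF proteins bind. They were taken from the RefSeq promoter table for GRCm38.p6, which held 8 of the 10 genes; Egr1 and Ier2 were not matched. Each line ends just before the RefSeq start or, for Dusp1, just before the first annotated exon base upstream of it, and runs 5′ to 3′ on the strand of the gene. The capitals mark TGACG or TGACNTCA on either strand. Fos lies at chr12:85473640-85473889 on the plus strand, Jun at chr4:95052223-95052472, Junb at chr8:84978749-84978998 and Dusp1 at chr17:26508520-26508722, all 3 on the minus strand.
Fos: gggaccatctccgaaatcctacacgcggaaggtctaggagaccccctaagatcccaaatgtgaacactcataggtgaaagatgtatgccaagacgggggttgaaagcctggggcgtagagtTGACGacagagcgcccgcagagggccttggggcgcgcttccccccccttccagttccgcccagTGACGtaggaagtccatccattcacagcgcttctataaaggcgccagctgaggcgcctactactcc
Jun: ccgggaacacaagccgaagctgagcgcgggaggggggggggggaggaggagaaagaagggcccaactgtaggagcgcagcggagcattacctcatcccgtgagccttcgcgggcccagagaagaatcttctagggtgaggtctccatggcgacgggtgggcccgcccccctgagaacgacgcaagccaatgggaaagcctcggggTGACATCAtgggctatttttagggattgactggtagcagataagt
Junb: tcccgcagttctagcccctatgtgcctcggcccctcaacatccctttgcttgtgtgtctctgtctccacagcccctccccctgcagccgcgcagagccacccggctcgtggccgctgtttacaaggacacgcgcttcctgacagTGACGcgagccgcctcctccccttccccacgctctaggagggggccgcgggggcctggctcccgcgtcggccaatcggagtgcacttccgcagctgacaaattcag
Dusp1: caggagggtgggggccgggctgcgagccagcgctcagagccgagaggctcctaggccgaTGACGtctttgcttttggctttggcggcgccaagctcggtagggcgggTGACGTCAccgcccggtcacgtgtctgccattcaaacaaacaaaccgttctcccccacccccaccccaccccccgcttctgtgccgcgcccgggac
No printed run overlaps an annotated exon of GENCODE M21. The Dusp1 run lies inside the gene, since the longest annotated Dusp1 transcript starts 53656 bases further upstream, and the Jun run lies inside Junos, a gene on the opposite strand.

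The 250 bases before the start were searched on both strands in 32851 RefSeq windows. TGACG was found in 5 of the 8 windows, those of Fos, Fosb, Junb, Dusp1 and Atf3, and in 17.8% of all windows. The full element TGACGTCA, which holds TGACG on both strands, was found in Dusp1 and in 1.55% of all windows, and the looser TGACNTCA, which includes it, in Jun and Dusp1 and in 7.49%. The AP-1 letters TGANTCA were found in 0 of the 8 windows and in 6.75% of all. A CArG box, the letters to which SRF binds, was found in Zfp36 and in 1.47% of all windows. GGGCGG, the core of an Sp1 site, was found in 6 of the 8 windows and in 32.7% of all, and it can overlap GCGNGGGCG, an EGR site found in Fosb and Zfp36 and in 4.70%. CCAAT was found in Jun and Junb and in 33.8% of all windows, and TATAAA in Fos and in 12.4%. These counts describe the letters in 1 window per gene. All 250 bases of the Zfp36 window, its CArG box among them, lie in an annotated exon of Zfp36. In the Dusp1, Atf3 and Fosb windows 47, 7 and 6 bases lie in exons of the same gene. For Jund, Dusp1, Atf3 and Zfp36 the RefSeq start differed from the start of the GENCODE gene by 1210, 53656, 34706 and 1025 bases. For Junb and Fosb the starts differed by 30 and 6 bases.

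In GRCm38 with the GENCODE M21 annotation, to which the gene identifiers of the count tables belong, the genes are all protein coding and their counts are taken over exons. Fos (ENSMUSG00000021250) spans chr12:85473890-85477273, Fosb (ENSMUSG00000003545) chr7:19302696-19310051, Jun (ENSMUSG00000052684) chr4:95049034-95052222, Junb (ENSMUSG00000052837) chr8:84974484-84978718 and Jund (ENSMUSG00000071076) chr8:70698949-70700616. Atf3 (ENSMUSG00000026628) spans chr1:191170296-191218039, Ier2 (ENSMUSG00000053560) chr8:84661331-84662852, Dusp1 (ENSMUSG00000024190) chr17:26505590-26562128 and Zfp36 (ENSMUSG00000044786) chr7:28376784-28380253, and Egr1 is ENSMUSG00000038418. Jun, Jund, Dusp1 and Zfp36 share 232, 877, 11 and 125 exon bases with genes on the opposite strand, which held 717, 0, 41868 and 1871 counts over all 60 mice.

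Libraries held between 15099415 and 45589415 counts, with a median of 24877993.5. The genes' own counts ranged from 1 for Fosb in 1 mouse to 18760 for Jund in another, so that Fosb had the least precise values. Markers of neutrophils, monocytes, B cells, T cells, platelets and red cells were all detected. RNA typical of liver was present in 11 mice from 9 of the 10 groups, with the hepatocyte transcript Alb above 100 CPM and at most 16057 CPM. In whole blood, fewer cells of a type and less RNA per cell cannot be told apart. Levels are given below as CPM scaled by TMM over all 60 mice, a scaling that centres most genes, and log2 fold changes come from a separate fit of each comparison. TMM and total counts did not give the same levels in these libraries. Where TMM was replaced with total counts, the median over all genes of the log2 fold change shifted. For Day 1 the shift was -1.38 under 100 mg/kg and -1.48 under 200 mg/kg, for 50 mg/kg on Day 0 it was 0.66, and for TBI it was -0.36.

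Per kilobase of exon, Jund was the most abundant of the 10 transcripts, with a median over all mice of 206 CPM per kb. Junb followed at 24.8, Zfp36 at 20.7, Dusp1 at 17.5 and Ier2 at 14.1 CPM per kb. Fos stood at 6.44, Jun at 2.27, Atf3 at 1.75, Egr1 at 0.824 and Fosb at 0.273 CPM per kb. The exons of all 10 genes were richer in GC than those of most genes, from 51.9% in Fos, above 66.2% of 23424 genes, to 67.1% in Jund, above 99.7%. Together the 10 genes took a median of 0.0641% of the counts in vehicle mice on Day 1, 0.121% in irradiated vehicle mice and 0.0429% in mice given 200 mg/kg on Day 1.

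**Figure D1:**
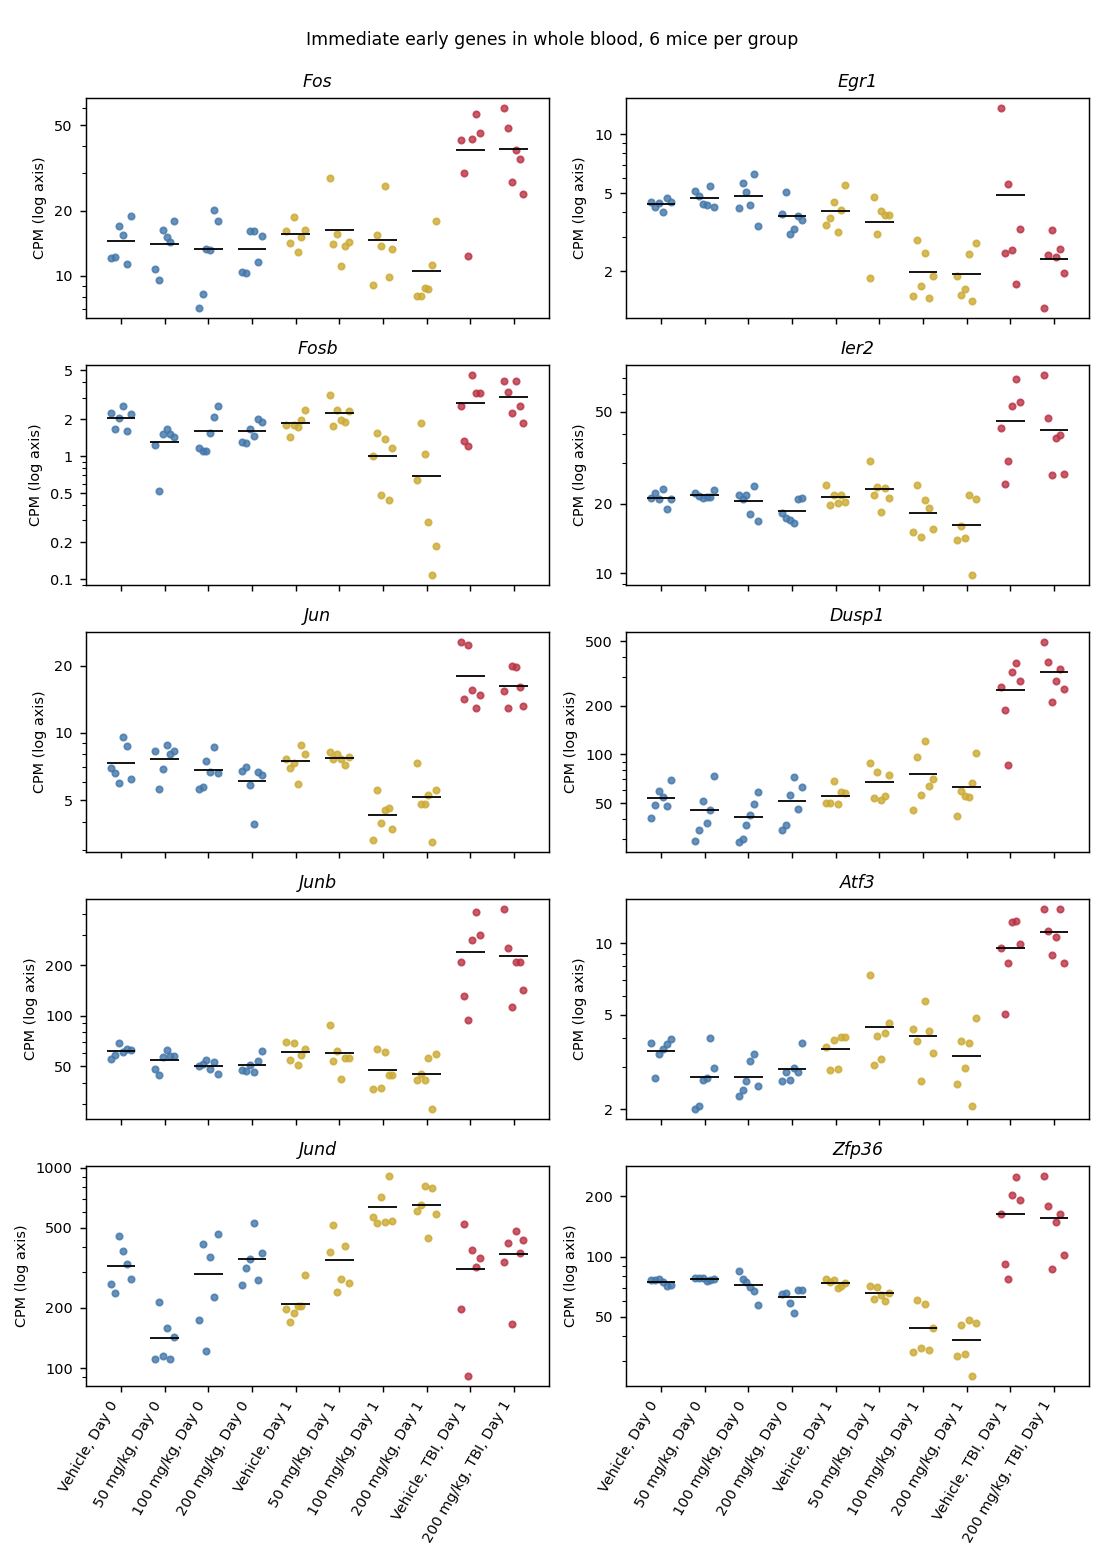
Level of each gene in CPM (TMM scaling over 60 mice, log axis) for each of 6 mice in the 10 groups, where each point is 1 mouse and horizontal lines give the group mean. Dusp1 and Junb sit highest in both irradiated groups, whereas Jund sits highest at 100 and 200 mg/kg on Day 1.

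The effect of irradiation on its own was read from irradiated vehicle mice against vehicle mice of the same day. A set of 7 of the 10 genes rose, Fos, Jun, Junb, Atf3, Ier2, Dusp1 and Zfp36, between 2.11-fold and 4.44-fold. A gene was said to rise or fall when edgeR's quasi-likelihood test with Benjamini-Hochberg adjustment gave an adjusted p under 0.05 and the log2 fold change was over 1 in size. By this rule 36.0% of all genes tested were called, 19.6% as higher. The median log2 fold change was 1.18 over the 10 genes and 0.09 over all genes. Fosb, Jund and Egr1 were not called.

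Dusp1, the MAP kinase phosphatase, had the largest fold change of the 10 genes. Its level ran from 49.7 to 68.1 CPM in vehicle mice, with a median of 53.9, and from 85.5 to 367 CPM in irradiated vehicle mice, with a median of 272. Every irradiated mouse lay above every vehicle mouse. The log2 fold change was 2.15 ± 0.30 (SE, n = 6 against 6; edgeR's quasi-likelihood test, adjusted p = 0.000112), or 4.44-fold.

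Junb, the AP-1 subunit with the second highest level per length, changed almost as much. Vehicle mice lay between 50.7 and 69.4 CPM with a median of 61.3, and irradiated mice between 94.2 and 415 CPM with a median of 246. The groups did not overlap, and the irradiated mice varied far more among themselves than the vehicle mice. The log2 fold change was 1.95 ± 0.32 (SE, edgeR adjusted p = 0.000359). Junb shares 173 exon bases with Prdx2, an abundant red cell gene on the opposite strand, and the strand setting of the counting is not given in the sources used here. The log2 fold change of Prdx2 was 0.05 (edgeR adjusted p = 0.921).

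Jun encodes the best known partner of FOS in AP-1. It lay between 5.88 and 8.82 CPM in vehicle mice, with a median of 7.49, and between 13.0 and 25.5 CPM after TBI, with a median of 15.1. The groups did not overlap, and the log2 fold change was 1.23 ± 0.20 (SE, edgeR adjusted p = 0.000341). Of the irradiated vehicle mice, the 2 with the most Alb RNA, mice 49 and 51, also had the highest Jun levels, 25.5 and 24.8 CPM, and the part of liver RNA in this was not tested. Without the mice above 100 CPM of Alb the log2 fold change of Jun was 1.03 and it was still called.

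Atf3, which is low in resting blood, lay between 2.92 and 4.03 CPM in vehicle mice and between 5.01 and 12.4 CPM in irradiated mice, with medians of 3.78 and 9.73. There was no overlap between the groups. The log2 fold change was 1.39 ± 0.23 (SE, edgeR adjusted p = 0.000333). These 4 genes were the ones whose groups did not overlap, against 25.0% of all genes tested.

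Fos, Ier2 and Zfp36 rose with 1 irradiated mouse or more inside the range of, or close to, the vehicle mice. Fos lay between 12.9 and 18.7 CPM in vehicle mice and between 12.3 and 56.7 CPM after TBI, with medians of 15.7 and 43.1, and its log2 fold change was 1.29 ± 0.29 (SE, edgeR adjusted p = 0.00332). Mouse 51 was the 1 irradiated mouse at 12.3 CPM, below every vehicle mouse, and the other 5 lay above all of them. Zfp36 lay between 69.4 and 77.2 CPM in vehicle mice and between 77.1 and 249 CPM after TBI, with medians of 74.1 and 177, and its log2 fold change was 1.12 ± 0.26 (SE, edgeR adjusted p = 0.00428). Ier2 lay between 19.8 and 24.2 CPM in vehicle mice and between 24.3 and 69.4 CPM after TBI, with medians of 21.1 and 47.8, and its log2 fold change was 1.08 ± 0.23 (SE, edgeR adjusted p = 0.00235). On the scale of this comparison the lowest irradiated mouse overlapped the vehicle mice for each of these genes. Without mouse 53 the log2 fold changes of Ier2 and Zfp36 were 0.92 and 0.95, below the limit of 1.

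The remaining genes did not pass the test. Egr1 had a log2 fold change of 0.23 ± 0.44 (SE, edgeR adjusted p = 0.686). Vehicle mice lay between 3.18 and 5.50 CPM and irradiated mice between 1.72 and 13.6 CPM, with medians of 3.92 and 2.93. The high values came from mice 49 and 51, at 13.6 and 5.58 CPM, which were also the mice with 3447 and 16057 CPM of Alb, whereas the other 4 irradiated mice lay at or below 3.30 CPM. Without the mice above 100 CPM of Alb its log2 fold change was -0.67 (edgeR adjusted p = 0.0186), the opposite direction, though still short of the limit of 1.

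Fosb, the least abundant of the 10 transcripts, had a log2 fold change of 0.53 ± 0.32 (SE, edgeR adjusted p = 0.187) and an interval of 2 SE from -0.11 to 1.18. Jund is often the AP-1 subunit present before stimulation, and in these mice it was the most abundant. Its log2 fold change was 0.55 ± 0.33 (SE, edgeR adjusted p = 0.183), with an interval of 2 SE from -0.11 to 1.21. Vehicle mice lay between 170 and 292 CPM for Jund, and irradiated mice between 91.8 and 526 CPM, on both sides of them.

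Against vehicle mice of Day 0, the day of irradiation, the same irradiated mice gave calls for the 7 named genes again, where 26.9% of all genes were called and 15.1% as higher. The groups did not overlap for 5 of the 10 genes, against 18.0% of all genes. The log2 fold changes were 2.35 for Dusp1, 2.07 for Junb, 1.53 for Fos and for Atf3, 1.35 for Jun, 1.23 for Zfp36 and 1.21 for Ier2, with edgeR adjusted p-values between 0.000225 and 0.00486. Both comparisons use the same irradiated mice. With total counts in place of TMM, 3 of the 7 calls against Day 1 remained, those of Dusp1 at 1.72, Junb at 1.53 and Atf3 at 1.03. Fos at 0.86, Jun at 0.91, Zfp36 at 0.71 and Ier2 at 0.69 were then below the limit. Over all genes, total counts gave 8781 calls among 25146. DESeq2 called 7 of the 10 in each comparison, beside 9006 of 25146 genes against Day 1 and 6638 of 24751 against Day 0.

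**Figure D2:**
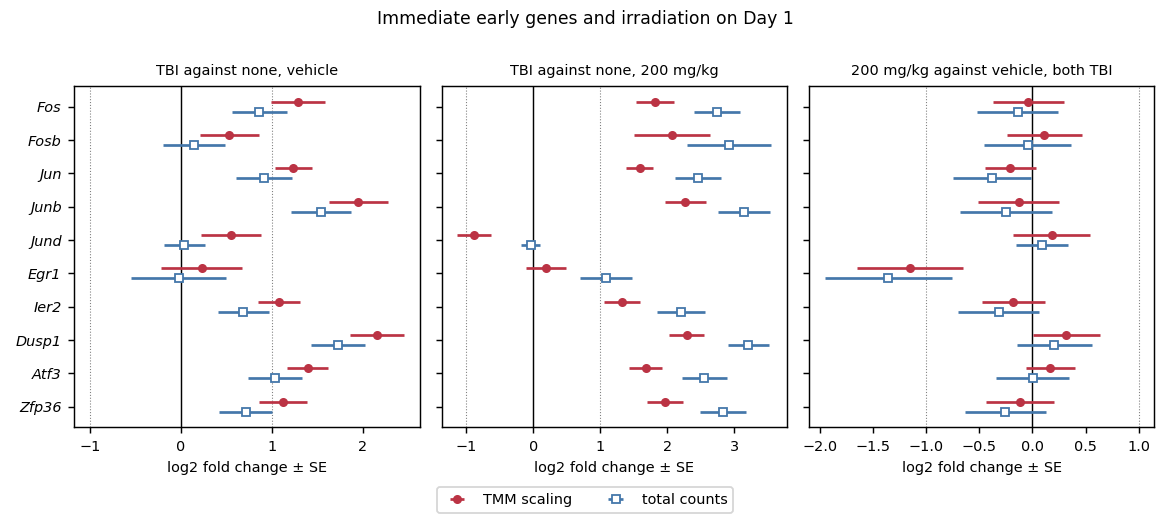
Log2 fold change with SE of each gene for irradiation in vehicle mice and in mice given 200 mg/kg and for 200 mg/kg among irradiated mice, with TMM scaling (circles) and total counts (squares). Dusp1 and Junb lie furthest to the right in both irradiation panels on both scalings, and values lie around 0 between the irradiated groups apart from Egr1 at -1.15.

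Markers of the blood cells moved in the same comparison. The summed level of 8 neutrophil markers ran from 434 to 706 CPM in vehicle mice and from 1183 to 6670 CPM after TBI, and 8 of the 8 rose with a median log2 fold change of 2.78. Platelet markers rose in 7 of 7, with a median of 2.55, and their sum ran from 1764 to 3548 CPM in vehicle mice and from 3416 to 24830 CPM after TBI. B cell markers fell in 8 of 8, with a median of -3.54, and T cell markers in 7 of 8, with a median of -2.38. Endothelial markers rose in 6 of 6, with a median of 2.44. Red cell markers had a median of 0.31, and their sum ran from 18472 to 298821 CPM after TBI, a wider range than the 78679 to 117157 CPM of vehicle mice. With total counts the red cell median was -0.31 and the neutrophil median 2.31. Of 8 monocyte markers, 3 rose and 3 fell. Within the irradiated vehicle mice, mouse 53 had the highest neutrophil sum and the highest level of Fos, Junb, Ier2, Dusp1, Atf3 and Zfp36. It also had the lowest Jun and Egr1 and the highest T cell and NK cell sums. Mouse 51 had the lowest neutrophil sum and the lowest level of Fos, Fosb, Junb, Jund, Dusp1 and Zfp36. That mouse had 16057 CPM of Alb and also the lowest monocyte, T cell, NK cell, platelet and red cell sums. The part of cell composition in the higher levels was not tested.

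Other genes of the same pathways were read from 6 lists, beside 36.0% of all genes called and 19.6% called as higher. Among 12 other AP-1 and ATF genes, 6 rose and 2 fell, with a median log2 fold change of 1.10. Fosl2, a further FOS family member, rose by 2.53, Jdp2, a repressor of AP-1, by 2.45 and Mafg, a small MAF protein, by 1.43 on the log2 scale. Among 18 other immediate early genes, 10 rose and 1 fell. Plk2, a kinase induced by DNA damage and by serum, had a log2 fold change of 3.02, and Rhob, a stress-induced small GTPase, had 1.83. Myc, the proto-oncogene transcription factor, fell by 1.89 on the log2 scale.

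Of the 8 other MAP kinase phosphatases, 4 rose and 1 fell. Dusp16 had a log2 fold change of 2.24 and Dusp6, the phosphatase of ERK, 1.19, whereas Dusp2, a nuclear phosphatase of blood cells, fell by 2.41. Of 11 genes of the ZFP36 family and its AU-rich targets, 3 rose and 2 fell, and Il1b, which encodes interleukin-1β, had a log2 fold change of 2.90. Among 11 EGR, NR4A and KLF genes tested, 2 rose and 3 fell, Nab1, a corepressor of EGR proteins, by 1.26 and Klf10 by 1.20 upwards. Of 15 upstream kinases and transcription factors tested, 2 rose, Mapk3 (ERK1) with 1.87 and Mapk14 (p38α) with 1.46. With total counts Nab1 at 0.77, Dusp6 at 0.78, Klf10 at 0.86 and Mafg, just under the limit at 1.00, were no longer called, and the others named here kept their calls.

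The same question was asked in mice given 200 mg/kg, irradiated against unirradiated on Day 1. Of the 10 genes, 8 rose, where 20.6% of all genes were called and 14.9% as higher. Dusp1 had a log2 fold change of 2.29 ± 0.26, Junb of 2.27 ± 0.30 and Fosb of 2.07 ± 0.56 (SE). Zfp36 stood at 1.97, Fos at 1.82, Atf3 at 1.68, Jun at 1.59 and Ier2 at 1.32. By edgeR the adjusted p was 0.0155 for Fosb and between 7.67e-05 and 0.0028 for the others. The groups did not overlap for 7 of the 10 genes, all those that rose other than Fosb, against 17.1% of all genes.

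Levels in individual mice show how wide the gap was. Zfp36 lay between 25.4 and 48.3 CPM in unirradiated mice given 200 mg/kg and between 86.7 and 253 CPM in irradiated mice given 200 mg/kg, with medians of 39.0 and 156. Dusp1 lay between 41.6 and 102 CPM without irradiation and between 210 and 495 CPM with it, with medians of 57.3 and 308. Fosb lay between 0.108 and 1.86 CPM without irradiation, from 1 to 27 counts, and between 1.86 and 4.09 CPM with it. For Zfp36 and Dusp1 the lowest irradiated mouse stood well above the highest unirradiated mouse, and for Fosb the highest and lowest mouse were nearly level.

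Jund went the other way, with a log2 fold change of -0.89 ± 0.25 (SE, edgeR adjusted p = 0.0178) that did not reach the limit of 1. It lay between 446 and 812 CPM without irradiation and between 167 and 484 CPM with it. Egr1 was not called, at 0.19 (edgeR adjusted p = 0.657). Neutrophil markers rose in 7 of 8 with a median of 2.25, red cell markers fell in 5 of 7 with a median of -1.67, and B cell markers fell in 7 of 8 with a median of -2.29. With total counts these marker medians were 3.13, -0.86 and -1.33. The part of these cells in the values was not tested. Total counts moved the median of all genes upward by 0.90 and Jund to -0.04.

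The other lists were read in the same comparison, beside the 20.6% of all genes called there and the 14.9% called as higher. Of 18 other immediate early genes, 11 rose, with Socs3, an inhibitor of cytokine signalling, at 2.57, Ier5, a relative of Ier2, at 1.83 and Sgk1, a kinase induced by serum and glucocorticoids, at 1.34. Of 12 other AP-1 and ATF genes, 4 rose, with Fosl2 at 2.85. Klf10 and Klf6 rose by 1.35 and 1.20 and Dusp6 by 1.18 on the log2 scale, while Map2k2 fell by 1.20 with TMM and stood at -0.32 with total counts (edgeR adjusted p = 0.0526).

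Whether 200 mg/kg changed the response to irradiation was tested as an interaction, the difference between both irradiation effects. Fosb and Jund passed, where 29.6% of all genes did. The interaction was 1.68 ± 0.63 for Fosb (SE, edgeR adjusted p = 0.0438) and -1.30 ± 0.40 for Jund (SE, edgeR adjusted p = 0.0146). The Fosb call was lost without the mice above 100 CPM of Alb, at 1.45 with adjusted p = 0.0503 by edgeR. Total counts gave -0.08 for Jund. The interaction contains the unirradiated effect of 200 mg/kg, given below, and it shares mice with each of its parts. The remaining 8 genes lay between 0.05 for Egr1 and 0.97 for Zfp36, the latter with an adjusted p of 0.0381 by edgeR.

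Between the irradiated groups themselves, 200 mg/kg against vehicle, 0 of the 10 genes were called by edgeR and 0 by DESeq2. All genes gave the same count, 0.00% by edgeR and 0 by DESeq2, although 688 genes had an unadjusted p under 0.05. Egr1 was the 1 gene of the 10 with an unadjusted p under 0.05. It lay between 1.30 and 3.25 CPM in mice given 200 mg/kg and between 1.72 and 13.6 CPM in vehicle mice, with a log2 fold change of -1.15 ± 0.50 (SE). In a single fit of all 60 mice it was called at -1.07 (edgeR adjusted p = 0.0464), and without the mice above 100 CPM of Alb it was -0.29 (edgeR adjusted p = 0.977).

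The other 9 genes lay between -0.21 for Jun and 0.32 for Dusp1. Their intervals of 2 SE were wide, from -0.31 to 0.95 for Dusp1, from -0.89 to 0.64 for Junb, from -0.70 to 0.62 for Fos and from -0.76 to 0.53 for Zfp36, and each held 0. Within the group given 200 mg/kg, mouse 55 had the highest neutrophil sum, 6154 CPM, and the highest Fos, Junb, Ier2, Dusp1 and Zfp36. It also had the lowest Egr1. Mouse 57 had the lowest neutrophil sum, 1545 CPM, and the lowest Junb, Jund, Ier2, Dusp1 and Zfp36. That mouse also had the lowest monocyte, T cell, NK cell, platelet, red cell and endothelial sums and the highest B cell sum. Jun and Egr1 went the other way and were highest in mouse 57, which had 5623 CPM of Alb. The part of cell composition or liver RNA in these values was not tested.

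The effect of BIO 300 without irradiation was read from each dose against vehicle of the same day. On Day 1 Jund rose 3.14-fold with 100 mg/kg and 3.25-fold with 200 mg/kg, while 4 and 5 of the 10 genes respectively had adjusted p-values under 0.05 by edgeR in the lower direction, beside 40.6% and 39.9% of all genes. By the full rule, 1 of the 10 genes was called for 100 mg/kg, where 48.8% of all genes were, and 2 for 200 mg/kg, where 47.8% were. By the adjusted p alone, 5 and 6 of the 10 passed, beside 65.6% and 63.5% of all genes. Over the 10 genes the log2 fold change had a median of -0.22 for the lower of these doses and -0.40 for the higher one, beside -0.38 and -0.48 over all genes. At both doses the background was higher than the share of the 10 genes called.

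Jund lay between 170 and 292 CPM in vehicle mice on Day 1, with a median of 201. At 100 mg/kg it lay between 529 and 911 CPM, with a median of 556, and the log2 fold change was 1.65 ± 0.17 (SE, edgeR adjusted p = 1.3e-06). At 200 mg/kg it lay between 446 and 812 CPM, with a median of 628, and the log2 fold change was 1.70 ± 0.17 (SE, edgeR adjusted p = 6.71e-07). Neither dose overlapped vehicle. At 50 mg/kg the mice lay between 240 and 516 CPM, overlapping vehicle, with a log2 fold change of 0.74 ± 0.19 (SE, edgeR adjusted p = 0.105), and the DESeq2 adjusted p was 0.00771.

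The size of the Jund change depended on the scaling. With total counts, Jund was at 0.26 (edgeR adjusted p = 0.0664) for 100 mg/kg and 0.17 (edgeR adjusted p = 0.173) for 200 mg/kg, while 8 and 9 of the other genes were called lower. On that scale 15715 of 23699 and 16119 of 23513 genes were called at these doses. The medians over all genes were then -1.76 and -1.96. Relative to the median of all genes, Jund stood at 2.03 and 2.18 with TMM and at 2.01 and 2.13 with total counts. Jund also took a larger share of the counts of the 10 genes, a quantity that no scaling alters. It made up 45.9% ± 4.64 of them in vehicle mice of that day, 74.5% ± 8.14 in mice given 100 mg/kg and 77.3% ± 6.71 in those given 200 mg/kg (SD, n = 6). The count of Jund was 3.28 times that of Junb in the median vehicle mouse, and 13.8 and 14.5 times at 100 and 200 mg/kg.

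Among the genes in the lower direction, Egr1 and Zfp36 did not overlap vehicle at either dose. The background for groups that do not overlap was 46.2% of all genes for the lower dose and 45.8% for the higher one, against 3 of the 10 genes, these and Jund, at each dose on the scale of each comparison's own fit. On the scale of the printed levels, set over all 60 mice, Jun did not overlap at 100 mg/kg either, with 3.32 to 5.55 CPM against 5.88 to 8.82 CPM in vehicle mice. Egr1 lay between 3.18 and 5.50 CPM in vehicle mice, between 1.46 and 2.88 at 100 mg/kg and between 1.41 and 2.79 at 200 mg/kg. Its log2 fold changes were -0.97 ± 0.23 and -0.99 ± 0.23 (SE, edgeR adjusted p = 0.00194 and 0.00185), just inside the limit of 1. Zfp36 lay between 69.4 and 77.2 CPM in vehicle mice, between 33.5 and 60.8 at 100 mg/kg and between 25.4 and 48.3 at 200 mg/kg, with log2 fold changes of -0.67 ± 0.16 and -0.86 ± 0.15 (SE, edgeR adjusted p = 0.00247 and 0.000211).

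Fosb was called lower at 200 mg/kg, at -1.32 ± 0.51 (SE, edgeR adjusted p = 0.0339), on 1 to 27 counts per mouse, and stood at -0.80 (edgeR adjusted p = 0.0401) at 100 mg/kg. It lay between 1.43 and 2.37 CPM in vehicle mice and between 0.108 and 1.86 CPM at 200 mg/kg, so that the groups overlapped. The call was lost when mouse 27, 46, 47 or 48 was left out, with edgeR adjusted p-values between 0.0506 and 0.0642. Jun stood at -0.73 and -0.45 at 100 and 200 mg/kg (edgeR adjusted p = 0.00111 and 0.0428), and Fos at -0.03 and -0.49 (edgeR adjusted p = 0.922 and 0.0366).

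Junb, Ier2, Atf3 and Dusp1 did not pass on the TMM scale at these doses with all 12 mice of each comparison. Junb stood at -0.28 and -0.35, Ier2 at -0.17 and -0.32, and Atf3 at 0.25 and -0.02. Dusp1 was the other gene above 0 at both doses, at 0.51 (edgeR adjusted p = 0.0512) and 0.26 (edgeR adjusted p = 0.221). Without the mice above 100 CPM of Alb, Dusp1 stood at 0.77 for 100 mg/kg (edgeR adjusted p = 0.00265). When 1 mouse at a time was left out, the smallest edgeR adjusted p was 0.0110 for Dusp1 and 0.0317 for Junb at 100 mg/kg, and 0.0254 for Junb and 0.0287 for Ier2 at 200 mg/kg, all with log2 fold changes inside the limit of 1. Total counts turned the direction of Dusp1 at 200 mg/kg to -1.28 and that of Atf3 at 100 mg/kg to -1.13. The values of Prdx2, which overlaps Junb on the other strand, were 1.94 and 2.13.

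**Figure D3:**
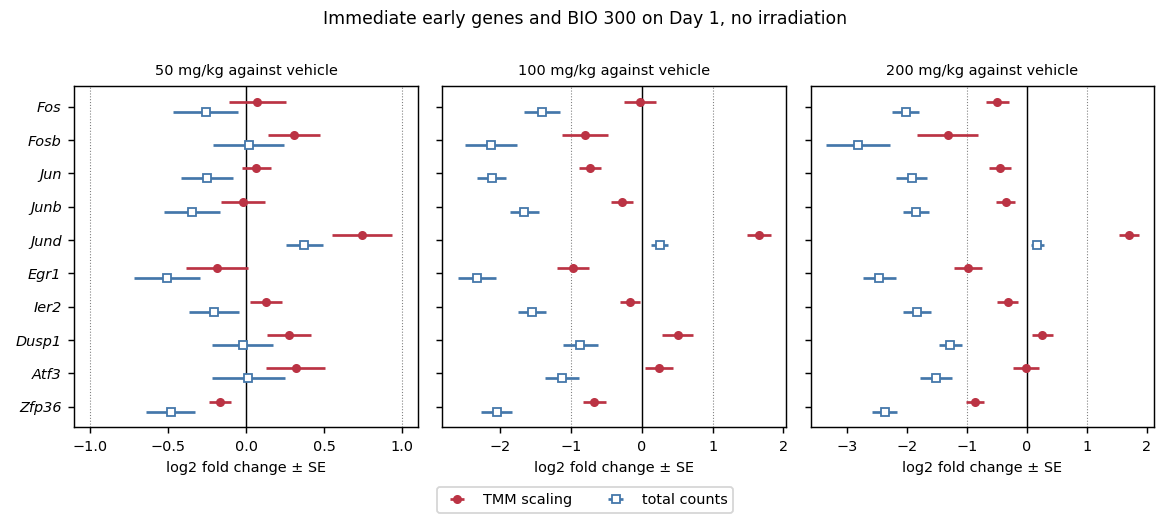
Log2 fold change with SE of each gene for BIO 300 at 50, 100 and 200 mg/kg against vehicle on Day 1 without irradiation, with TMM scaling (circles) and total counts (squares). Jund is furthest to the right at 100 and 200 mg/kg on Day 1 with TMM, and the squares lie to the left of the circles at all 3 doses, furthest at 100 and 200 mg/kg.

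Markers of red cells and platelets rose in the same comparisons. Red cell markers rose in 7 of 7 at both doses, with medians of 2.12 and 2.25 on the TMM scale. Their TMM-scaled sum ran from 78679 to 117157 CPM in vehicle mice, from 316785 to 585264 at 100 mg/kg and from 276358 to 624072 at 200 mg/kg. With total counts the red cell medians were 0.74 and 0.67. The sum then ran from 128591 to 156807 CPM in vehicle mice. It ran from 200337 to 283628 CPM at 100 mg/kg and from 178551 to 275260 at 200 mg/kg. Platelet markers rose in 7 of 7, with medians of 3.13 and 3.23, or 1.70 and 1.67 with total counts. B cell markers fell in 8 of 8 at both doses, with medians of -1.56 and -1.90, and T cell markers in 7 of 8. The 8 neutrophil markers had medians of 0.13 and 0.18 with TMM. With total counts their medians were -1.25 and -1.35, beside -1.76 and -1.96 over all genes. Of 8 monocyte markers, 1 rose and 4 fell at 100 mg/kg, and 1 rose and 2 fell at 200 mg/kg. Endothelial markers rose in 6 of 6 at 100 mg/kg and in 5 of 6 at 200 mg/kg. The part of blood composition in the Jund level was not tested.

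Dose was compared directly on Day 1 as well. Between 100 and 50 mg/kg, 1 of the 10 genes was called, Fosb at -1.11 ± 0.32 (SE, edgeR adjusted p = 0.00724), where 46.3% of all genes were called and 5 of the 10, beside 64.9% of all, passed by the adjusted p alone, and that call was lost when mouse 31, 39 or 41 was left out. Jund stood at 0.92 ± 0.22 (SE, edgeR adjusted p = 0.00232), short of the limit, and it was called at 1.05 without mouse 32. Between 200 and 100 mg/kg, 0 of the 10 genes were called by edgeR and 0 by DESeq2, 0 had an unadjusted p under 0.05, and 0.00% of all genes were called. The interval of 2 SE for that difference ran from -0.29 to 0.41 for Jund and from -1.68 to 0.64 for Fosb.

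On Day 0, 24 h earlier, Jund was again the gene that stood apart at 50 mg/kg, in the opposite direction. It fell to 0.44 of vehicle, a log2 fold change of -1.18 ± 0.20 (SE, edgeR adjusted p = 0.00283), and was the 1 gene of the 10 called, where 4.50% of all genes were. Vehicle mice lay between 236 and 455 CPM with a median of 303, and mice given 50 mg/kg between 111 and 213 CPM with a median of 129. Every treated mouse lay below every vehicle mouse, and 7.31% of all genes had groups that did not overlap. Relative to the median of all genes it stood at -1.21 with either scaling, although total counts alone gave -0.52. Red cell markers fell in 3 of 7 with a median of -1.30 and platelet markers in 5 of 7 with a median of -1.02. With total counts these marker medians were -0.73 and -0.37. The part of these cells in the Jund level was not tested.

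At 100 and 200 mg/kg on Day 0, 0 of the 10 genes were called by edgeR and 0 by DESeq2. Over all genes, edgeR called 0.00% at each dose, and DESeq2 called 2 genes at each. Unadjusted p-values under 0.05 were seen for 2 of the 10 genes at 100 mg/kg, Junb and Atf3, and for 3 at 200 mg/kg, Junb, Ier2 and Zfp36. Junb stood at -0.27 ± 0.07 and -0.25 ± 0.08 (SE), and Zfp36 at -0.04 ± 0.09 and -0.23 ± 0.07. At 50 mg/kg on Day 1, 0 of the 10 genes were called by edgeR and 0 by DESeq2, with 0.00% of all genes called by edgeR and Jund and Zfp36, 2 of the 10, under an unadjusted p of 0.05. The groups did not overlap for 1 of the 10 genes at 100 mg/kg on Day 0, Junb, and for 1 at 200 mg/kg, Zfp36, beside 0.192% and 0.290% of all genes.

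The dependence of each dose effect on the day was tested as an interaction. For Jund it was 1.94 ± 0.29, 1.78 ± 0.37 and 1.59 ± 0.27 (SE) for 50, 100 and 200 mg/kg, with edgeR adjusted p-values of 0.000263, 0.000278 and 5.35e-05. With total counts it was 0.89, 0.44 and 0.31 (edgeR adjusted p = 0.000127, 0.0475 and 0.0827), so that none of the 3 reached the limit of 1 on that scale. Relative to the median of all genes it was 2.02, 2.16 and 1.94 with TMM and 1.94, 2.28 and 1.89 with total counts. These interactions share the vehicle mice. Egr1 also passed at 100 mg/kg, at -1.11 ± 0.25 (SE, edgeR adjusted p = 0.000719), and was the 1 further gene of the 10 to pass the full rule. In order of dose the background was 7.69%, 42.0% and 36.7% of all genes. By the adjusted p alone, 3, 6 and 3 of the 10 genes passed, beside 17.5%, 54.2% and 48.8% of all genes. Between vehicle mice of Day 1 and Day 0, 0 of the 10 genes were called by edgeR and 0 by DESeq2, with 0.00% of all genes called by edgeR. Jund, the 1 gene of the 10 with an unadjusted p under 0.05 there, stood at -0.64 ± 0.18 on Day 1 against Day 0 (SE, edgeR adjusted p = 0.21), and its DESeq2 adjusted p was 0.0141.

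Across the 10 groups, the order of the mean levels set Jund apart from the others. Jund was highest at 200 and 100 mg/kg on Day 1, with 649 ± 137 and 633 ± 153 CPM (SD). This order depended on the scaling, since with total counts 50 mg/kg on Day 1 at 380 CPM and vehicle on Day 0 at 360 CPM stood above 100 and 200 mg/kg on Day 1, at 351 and 331 CPM. The next group was irradiated mice given 200 mg/kg, at 370 ± 111 CPM, which overlapped the range at 200 mg/kg and lay below that at 100 mg/kg. It was lowest at 50 mg/kg on Day 0, with 142 ± 40.0 CPM, a range that overlapped vehicle on Day 1 at 209 ± 42.6 CPM. Dusp1 was highest in irradiated mice given 200 mg/kg, at 325 ± 102 CPM, then in irradiated vehicle mice at 251 ± 101 CPM, and these ranges overlapped. All other groups had means between 40.9 and 75.3 CPM. Egr1 was highest in irradiated vehicle mice and lowest at 200 mg/kg on Day 1, with means of 4.87 ± 4.48 and 1.95 ± 0.555 CPM (SD), and each neighbouring pair of groups overlapped. The highest mean included mouse 49 at 13.6 CPM. The median of irradiated vehicle mice was 2.93 CPM, below the 3.92 CPM of vehicle mice on Day 1. With total counts the highest mean of Egr1 was at 50 mg/kg on Day 0, at 8.67 CPM, against 5.65 CPM in irradiated vehicle mice.

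The makeup of the counts of the 10 genes changed with TBI as well. Jund made up 45.9% of them in vehicle mice on Day 1, 28.7% ± 12.0 in irradiated vehicle mice and 31.7% ± 8.57 in irradiated mice given 200 mg/kg (SD, n = 6). Dusp1 made up 12.3% ± 1.54, 22.7% ± 3.10 and 27.4% ± 3.11 in the same groups, with the highest vehicle mouse at 14.8% and the lowest irradiated mouse at 18.6%. The count of Jund was 1.08 times that of Junb in the median irradiated vehicle mouse, in a range from 0.768 to 4.01, against 2.74 to 4.58 in vehicle mice. These shares use only counts of the same library.

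**Figure D4:**
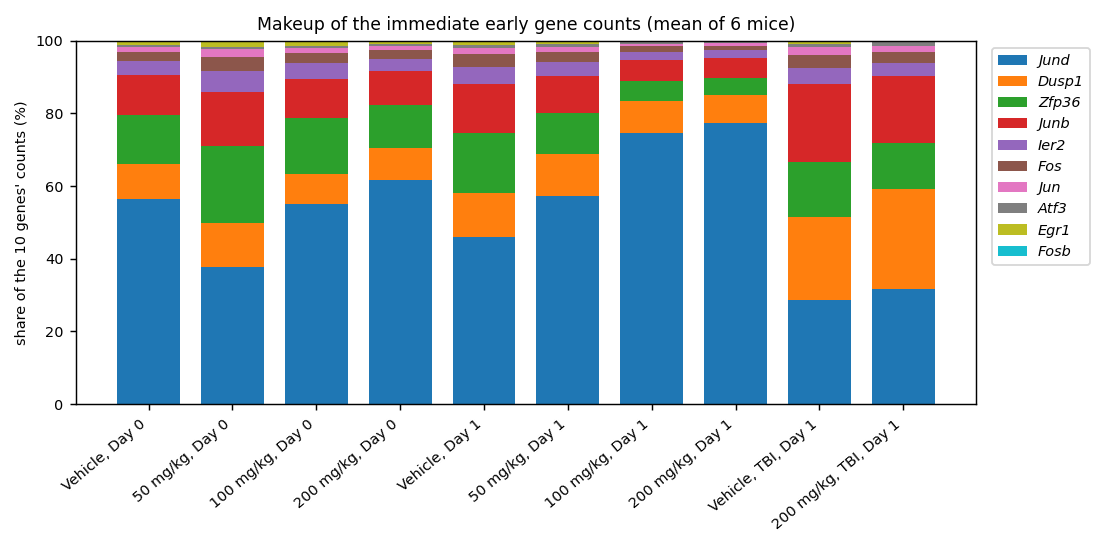
Share of each gene in the summed counts of the 10 genes (percent, mean of 6 mice, stacked bars) in the 10 groups. Jund fills 74.5% and 77.3% of the bars at 100 and 200 mg/kg on Day 1 and 28.7% and 31.7% in the irradiated groups, where Dusp1 and Junb take more.

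Other lists at 200 mg/kg on Day 1, where 47.8% of all genes were called, are given beside the 10 genes on the TMM scale. Among the 12 other AP-1 and ATF genes, 3 rose and 1 fell, with Atf4, the factor of the integrated stress response, at 1.72, Atf2, a CREB family activator, at 1.72 and Mafg at 1.71. Of 15 upstream kinases and factors tested, 5 rose, with Mapk3 at 2.34 and Map2k2 (MEK2) at 1.92. Of 18 other immediate early genes, 2 rose, Gadd45a at 2.02 and Ppp1r15a at 1.69, both stress-induced genes, and 2 fell, with Myc at -1.39. Of 8 MAP kinase phosphatases, 3 rose, with Dusp16 at 1.44. Of 11 EGR, NR4A and KLF genes tested, 1 rose and 2 fell, with Nab1 at 1.67, and of 10 ZFP36 and AU-rich genes tested, 2 fell, with Zfp36l1, a relative of Zfp36 that also binds AU-rich elements, at -1.24. At 50 mg/kg on Day 0, Gadd45a fell by 1.39 and Ppp1r15a by 1.13 on the log2 scale, in the same direction as Jund there and beside 4.50% of all genes called. With total counts these 2 values were -0.73 and -0.47. At 200 mg/kg on Day 1, total counts put each of the 9 genes named as higher below the limit of 1, from -0.08 for Dusp16 to 0.80 for Mapk3, while Myc stood at -2.88 and Zfp36l1 at -2.73.

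The genes most alike to each of the 10 were sought among 6738 genes. The measure was the mean absolute difference between group means of log2(CPM + 1), each centred, over the 10 groups. For Jund these were Fam104a and Pink1, a mitochondrial kinase, at 0.09 and 0.09. The nearest of the other 9 genes to Jund was Fosb, at 0.66, further than for any other of the 10. A gene with no change between groups would lie nearer to Jund, at 0.46, so Fosb was not alike to it. Egr1 also had Fosb as its nearest, at 0.321, slightly further than a gene with no change, at 0.319. For Junb the most alike genes were Mpzl3 and Dhrs7, at 0.03 and 0.06. For Dusp1 they were Il1f9, an interleukin-1 family cytokine, and Igf1r, at 0.14 and 0.14. For Fos they were Ksr1, a scaffold of the MAP kinase cascade, and Fbxo31, at 0.09 and 0.09, and for Zfp36 they were Xpc and Ier5, at 0.05 and 0.06. Egr1 was closest to Pik3ap1, Jun to Rab11fip4, Ier2 to Zbtb7b, Atf3 to Hexim1 and Fosb to Per1. These values describe 10 group means and carry no test.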

How the data were processed

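RNA-seq of whole blood from 60 mice was deposited as 10 count tables and 10 result tables. The labels name polyA selection and the study's methods a stranded total RNA library with globin and rRNA depletion. Tools named in the submitters' processing notes are Trimmomatic 0.36, STAR 2.5.2b, Subread 1.5.2 and DESeq2 (version not given), with GRCm38. The strand setting of the counting is not given in the sources used here.

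The unit used was the raw read counts per gene deposited by the authors. The result tables also hold normalized signal columns deposited by the authors, equal to the counts divided by 1 factor per mouse, and columns of the authors' log2 fold changes and p-values. Neither was used. No per-mouse column failed to map to a sample (0 columns). No 2 mice of a group shared a library: over 150 pairs the smallest chi-square per gene was 12.0. The labels number each mouse as a sample of its own.

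Genes with at least 10 counts summed over the mice of a comparison were tested with edgeR 4.0.16 (TMM, quasi-likelihood, limma 3.58.1, R 4.3.3, data.table version 1.17.8), 6 mice against 6, or over 4 groups for an interaction, with Benjamini-Hochberg adjustment over all genes tested. A gene was called where the adjusted p was under 0.05 and its log2 fold change exceeded 1 in size. Intervals are the estimate with 2 SE on either side. The script was tested on simulated data. Alternatives were total counts, median-ratio factors, no filter, filterByExpr, DESeq2 1.42.0, 1 fit of all 60 mice, the adjusted p alone, leaving out mice above 100 CPM of Alb, and leaving out each mouse.

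The members, gene lists and marker lists were chosen with earlier results of these data known. All 10 members were tested in each comparison, although in some comparisons only part of them are named. From each other list, up to 3 called genes were named, those that changed most among genes whose groups did not overlap and whose mean reached 10 CPM in either group, and for each member the 2 genes with the nearest group means of log2(CPM + 1). Promoter windows came from a RefSeq table for GRCm38.p6. Depth, from 15099415 to 45589415 counts, limits the precision for Fosb and Egr1 most. A gene that the rule would have named is not reported here.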

Additional observations from a re-analysis of the deposited data

Results flagged for a closer look

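In 7 of the 100 gene and group combinations, 1 mouse stood apart from the other 5 by Dixon's criterion, which chance meets in about 1 in 20 groups. Mouse 31, given 50 mg/kg and bled on Day 1, was such a mouse for Fos, at 28.6 CPM where the next mouse had 15.5 CPM, and for Atf3, at 7.34 CPM where the next had 4.61 CPM. It had the highest level in its group for 8 of the 10 genes and the highest neutrophil, monocyte and platelet sums. It also had the lowest Egr1 and the lowest B cell and T cell sums. Mouse 49, irradiated after vehicle, had 13.6 CPM of Egr1 where the next had 5.58 CPM, and it held 3447 CPM of the liver transcript Alb. Mouse 48, given 200 mg/kg and bled on Day 1, had 18.0 CPM of Fos where the next had 11.2 CPM, and the highest neutrophil sum of its group. Mouse 30, a vehicle mouse of Day 1, had 292 CPM of Jund where the next had 204 CPM, and the highest red cell sum of its group. Mouse 24, given 200 mg/kg and bled on Day 0, had 3.80 CPM of Atf3 where the next had 2.98 CPM. Mouse 2, given 50 mg/kg and bled on Day 0, had 0.518 CPM of Fosb, the lowest of its group, where the next had 1.23 CPM.

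An effect differed between groups in 6 of 40 interaction tests by edgeR, beside 7.69%, 42.0% and 36.7% of all genes for the day and 50, 100 and 200 mg/kg and 29.6% for TBI and 200 mg/kg. For Jund the effect of dose differed between Day 1 and Day 0 by 1.94, 1.78 and 1.59 for 50, 100 and 200 mg/kg, and the effect of TBI differed between 200 mg/kg and vehicle by -1.30, all on the log2 scale with TMM. With total counts these values were 0.89, 0.44, 0.31 and -0.08, none of them past the limit of 1. Prdx2, a red cell gene, had 2.09, 1.91, 1.42 and -1.76 in the same tests, and the part of red cell RNA was not tested. For Egr1 the effect of 100 mg/kg differed between the days by -1.11. For Fosb the effect of TBI differed between 200 mg/kg and vehicle by 1.68, on 1 to 118 counts per mouse in the groups involved.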

How the results depend on the processing

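No paired analysis was possible because each mouse has a number of its own and no number is shared between groups. Of 170 tests of the members, 169 kept their direction and side of the threshold with DESeq2, 169 without a filter on low counts, 168 with filterByExpr, 168 with median-ratio factors, 167 in 1 fit of all 60 mice, 165 without the mice above 100 CPM of Alb and 111 with total counts. With total counts, 4 reversed, Atf3 at 100 mg/kg on Day 1 to -1.13, Dusp1 at 200 mg/kg on Day 1 to -1.28, Fos in the interaction of 100 mg/kg with day to -1.37 and Atf3 in that of 200 mg/kg with day to -1.06, the scaling having moved the median of all genes by -1.38, -1.48, -1.46 and -1.23. Members called with total counts numbered 0 for 50 mg/kg on Day 0, 8 and 9 for 100 and 200 mg/kg on Day 1, 8 for 100 against 50 mg/kg, 3 for TBI against vehicle of Day 1, 3, 7 and 8 for the interactions of 50, 100 and 200 mg/kg with day, and 8 for that with TBI. In the same order, the calls over all genes were 2870 of 24485, 15715 of 23699, 16119 of 23513, 13756 of 23011 and 8781 of 25146. For the interactions they were 10577 of 26323, 15517 of 25908, 14107 of 25702 and 12208 of 26875. With the adjusted p alone they numbered 5 and 6 for 100 and 200 mg/kg on Day 1, 5 for 100 against 50 mg/kg, and 3, 6 and 3 for the interactions with day. The interaction of 50 mg/kg with day gave 2 with median-ratio factors, with DESeq2 and without the Alb mice, Fosb being added. That with TBI gave 1 with median-ratio factors, without a filter and without the Alb mice, Fosb being lost. The fit of all 60 mice gave 2 at 100 mg/kg on Day 1 and 1 between the irradiated groups, Egr1 in both, and 100 against 50 mg/kg gave 0 without the Alb mice. Egr1 in the interaction of 100 mg/kg with day fell short at -0.96 with filterByExpr and -0.98 without the Alb mice. The cause was not tested. Leaving out each mouse gave from 5 to 7 members for TBI, from 1 to 2 at 100 mg/kg, from 1 to 3 at 200 mg/kg and from 0 to 2 for 100 against 50 mg/kg, and 1, 7 and 8 throughout at 50 mg/kg on Day 0, for TBI against Day 0 and for TBI at 200 mg/kg. Interactions were not refitted without each mouse. Counts over all genes moved by more than 1.5 times in DESeq2 at 50 mg/kg on Day 1 (68), at 100 and 200 mg/kg on Day 0 (2 and 2) and between vehicle days (37), each against 0 by edgeR. They moved with filterByExpr from 11563 to 7577 at 100 mg/kg on Day 1 and from 10653 to 6294 for 100 against 50 mg/kg. In 1 fit of all mice they moved from 0 to 190 between irradiated groups, from 0 to 25 for 200 against 100 mg/kg, from 0 to 1 at 200 mg/kg on Day 0 and from 4873 to 7859 for TBI at 200 mg/kg. With the adjusted p alone they moved from 1103 to 3449 at 50 mg/kg on Day 0, from 2025 to 4607 in its interaction with day and from 0 to 2 at 50 mg/kg on Day 1, where filterByExpr gave 11, no filter 3 and leaving out mouse 27 or 36 gave 29 or 59. Depth limits Fosb, with 1 to 118 counts per mouse.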
